A study of Mus musculus with 11 samples.

Results

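The semaphorin, plexin, neuropilin, Eph, ephrin, Slit, Robo and netrin genes, the classical ligands and receptors of axon guidance, were followed through 11 orthotopic mouse pancreatic tumours. Members were chosen by gene symbol from 54232 genes in the count table: 63 protein-coding genes carried one of the family names, and the 55 of them with at least 10 counts in at least 5 tumours were kept. The family was selected on these same tumours, because axon guidance ranked high in the comparison of knockout with wild-type hosts, so that every difference between KO and WT given for a member describes the values that chose it and carries no test.

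Axon guidance cues act as short-range or secreted signals that attract or repel a growing cell edge. Semaphorins signal through plexins, the secreted class 3 members mostly with a neuropilin as co-receptor, whereas ephrins are themselves bound to the membrane and signal in both directions with Eph receptor tyrosine kinases on a neighbouring cell. Slits act through Robo receptors and netrins through Dcc and Unc5 receptors, and in pancreatic cancer these families are also known from carcinoma cells, endothelium and fibroblasts and from nerves that grow into tumours.

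All hosts were adult female C57BL/6 mice carrying the tamoxifen-inducible RosaCreERT2 transgene, and every host received tamoxifen. The 6 KO hosts were Pkn2 fl/fl and the 5 WT hosts Pkn2 +/+, where PKN2 is a serine/threonine protein kinase. Cre was expressed throughout the host, so that the deletion was not limited to fibroblasts. Each mouse received 1000 TB32048 cells, a single line from a female KPC mouse with intact Pkn2, injected with Matrigel into the pancreas, and a piece of the resulting tumour was sequenced in bulk. In such tissue fewer cells of a type and less RNA per cell cannot be told apart.

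Before the members, the libraries themselves were compared. Reads assigned to genes numbered 16294128 to 31121422 per tumour. CPM values (counts scaled to a fixed library size by edgeR) for Pkn2 itself were 80.04, 98.2 and 108 in KO tumours (lowest, median and highest) and 69.2, 62.9, 84.4, 138 and 129 in WT A to E, a log2 difference of -0.002 ± 0.21 (SE), and since the tumours contained unmodified carcinoma cells these values do not check the host genotype. Counts of ribosomal RNA made up 0.308 to 0.739% of the KO libraries but 1.31, 6.39, 1.40, 0.765 and 0.241% of WT A to E (log2 difference -1.38, exact permutation p = 0.0866, two-sided, 462 arrangements). Within each library the deviation of a gene from its mean across tumours was also ranked against its exon length, and this correlation across genes was -0.505 in WT A, -0.456 in WT B and -0.176 in WT C against 0.296 and 0.408 in WT D and E and 0.122 to 0.374 in the KO tumours (difference of the means 0.34, exact permutation p = 0.0996). WT A, WT B and WT C therefore had the highest ribosomal RNA shares and the only negative length correlations. For most named members the log2 fold changes are given both with all WT tumours and with WT D and E alone.

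The members are long genes. Their median merged exon length was 6641 bases (range 1599 to 25433), against 3909 bases over the 16536 genes tested, with the ephrins (median 2808.5 bases) as the short exception beside 7301 bases for all other members. Promoter sequence was available from RefSeq (GRCm38.p6) for 47 of the 55 members, as windows of 250 bases before to 50 bases after the annotated start. Among these, 35 (74.5%) contained the GC box GGGCGG, searched on both strands, compared with 60.8% of the 11733 promoters of tested genes and 35.9% of all 27025 promoters. The TATA box core TATAAA was found in 2 members, Slit2 and Efnb2 (4.3%, against 7.9% of tested genes and 14.2% of all promoters). GGAATG, the core recognised by TEAD factors, was present in 12.8% of members and 12.3% of tested genes, and the E-box CACGTG in 4.3% and 9.6%. Median GC content was 64.7% for the members and 60.3% for tested genes.

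The promoters of 4 members on which the results turn are printed 5′ to 3′ in lower case, with GC boxes (GGGCGG on either strand) and the TATA box core in capitals. Efnb1 and Ephb3 are a ligand and its receptor that were higher in KO tumours with either choice of WT tumours, Slit2 is a secreted ligand with the longest merged exons of all members, and Sema3d had the most negative fold change.
Efnb1 (chrX:99135811-99136110, plus strand): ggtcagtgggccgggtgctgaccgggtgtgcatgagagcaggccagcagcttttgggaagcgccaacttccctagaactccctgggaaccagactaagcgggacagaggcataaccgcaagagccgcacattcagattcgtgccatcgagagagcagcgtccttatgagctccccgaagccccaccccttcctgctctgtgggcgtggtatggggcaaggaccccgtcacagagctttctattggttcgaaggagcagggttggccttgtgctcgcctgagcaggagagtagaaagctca
Ephb3 (chr16:21204545-21204844, plus strand): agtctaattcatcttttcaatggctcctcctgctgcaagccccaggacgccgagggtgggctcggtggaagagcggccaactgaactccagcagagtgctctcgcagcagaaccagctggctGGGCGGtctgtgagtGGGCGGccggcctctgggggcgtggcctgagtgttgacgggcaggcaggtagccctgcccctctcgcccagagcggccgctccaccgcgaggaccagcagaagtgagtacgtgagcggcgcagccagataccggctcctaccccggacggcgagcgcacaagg
Slit2 (chr5:47982905-47983204, plus strand): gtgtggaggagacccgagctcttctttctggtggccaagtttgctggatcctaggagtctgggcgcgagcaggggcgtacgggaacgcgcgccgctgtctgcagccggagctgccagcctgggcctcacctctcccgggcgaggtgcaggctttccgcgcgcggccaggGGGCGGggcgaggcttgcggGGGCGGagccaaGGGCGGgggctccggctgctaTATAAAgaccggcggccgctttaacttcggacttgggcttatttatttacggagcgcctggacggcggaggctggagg
Sema3d (chr5:12382916-12383215, plus strand): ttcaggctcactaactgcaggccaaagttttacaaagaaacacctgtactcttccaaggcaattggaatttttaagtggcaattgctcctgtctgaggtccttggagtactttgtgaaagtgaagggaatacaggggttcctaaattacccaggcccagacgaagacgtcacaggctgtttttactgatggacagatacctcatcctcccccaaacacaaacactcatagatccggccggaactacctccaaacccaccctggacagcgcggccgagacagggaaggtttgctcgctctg
The windows of Efnb1 and Sema3d contained 0 GC boxes, that of Ephb3 2 and that of Slit2 3 beside the TATA core, and none of the 4 contained GGAATG as a TEAD core on either strand or CACGTG. CpG dinucleotides numbered 14, 23, 30 and 8 in the order printed. A match describes the letters of the window and is not a measured binding site.

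In the tumours the level of the members spanned a wide range. RPKM (CPM per kilobase of exon) was used for comparisons between genes. The highest mean level over all tumours belonged to Plxnb2 at 50.3 RPKM and the lowest to Plxnb3 at 0.1601 RPKM. The 8 genes that were not kept were Sema5b, Epha5, Epha6, Epha8, Epha10, Robo2, Robo3 and Dcc, of which Epha10 and Dcc had 0 counts in every tumour, where a count of 0 allows a level of up to 0.0889 to 0.25 CPM depending on the library. Just outside the count rule lay Sema5b with 10 counts in 2 tumours, 1 of each genotype, and a maximum of 23 counts. Just inside were Efna3 with 8 tumours (5 KO, 3 WT) and Sema3d with 9 (5 KO, 4 WT). A gene that passes such a rule through the group in which it is high has to differ, but 52 of the 55 members had at least 10 counts in every tumour.

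**Figure D1:**
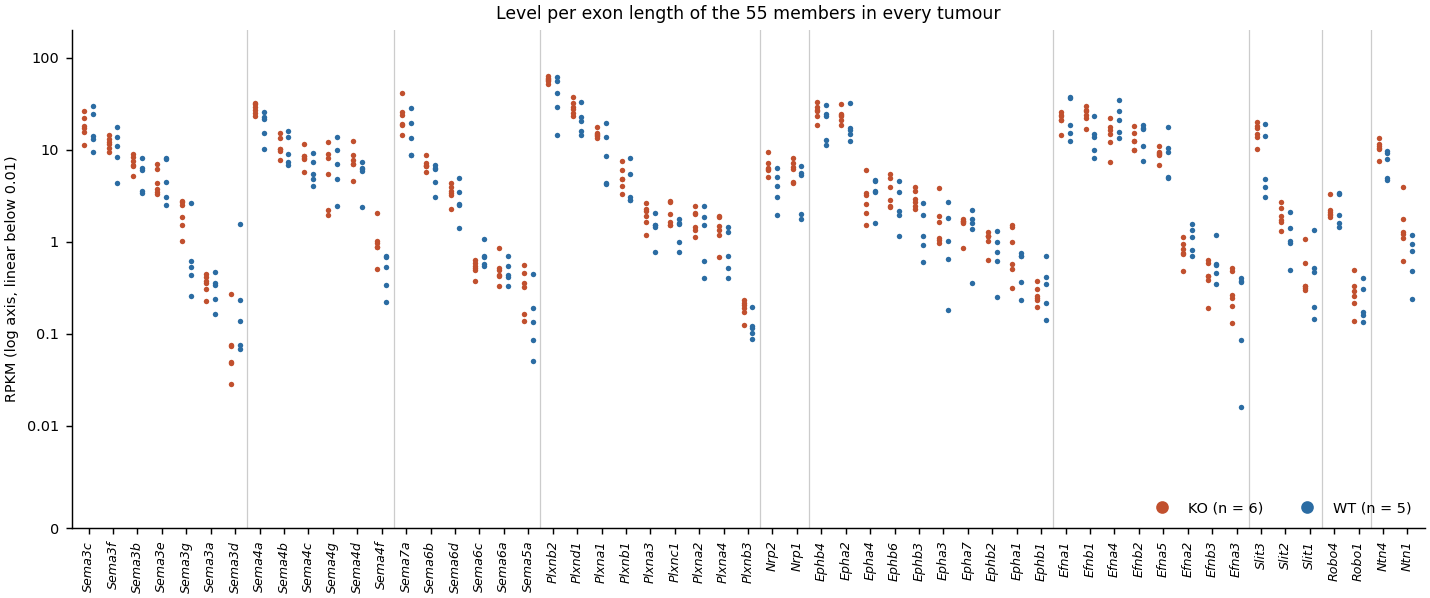
Level of each of the 55 members in every tumour, as RPKM on a log axis that is linear below 0.01, with KO tumours (n = 6) in orange and WT tumours (n = 5) in blue and grey lines between role groups. Plxnb2 stands highest at a mean of 50.3 RPKM, and within most role groups a few members hold most of the signal.

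No member passed the threshold of an adjusted p under 0.05 in edgeR's quasi-likelihood test with Benjamini-Hochberg adjustment over all 16536 genes, where 0.0181% of all genes did. At an unadjusted p under 0.05, 10 members were higher in KO tumours (8.57% of all genes) and 1 was lower (15.5% of all genes), namely Sema3g, Sema4a, Sema4f, Plxnc1, Nrp2, Ephb3, Efnb1, Slit2, Ntn1 and Ntn4 on the higher and Sema3d on the lower side. DESeq2 placed 2 members, Efnb1 and Ephb3, above the adjusted threshold in KO tumours (3.42% of all genes) and 0 below it (6.03%). Log2 fold changes were positive for 41 of 55 members, 74.5%, against 48.0% of all genes, with a median of 0.37 against -0.03. Values of the 6 KO and 5 WT tumours overlapped for every member, whereas 3.58% of all genes did not overlap.

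The spread among WT tumours was large. WT A or WT B was the lowest of all 11 tumours for 39 of the 55 members, WT B alone for 22. Both of them lay below every KO tumour for 25 members (45.5%), a pattern held by 23.7% of all genes, and below the other WT tumours for 29 (52.7%, against 20.2% of all genes). WT E lay at the other end and exceeded the KO median for 34 members (61.8%, against 50.3% of all genes). Against WT D and E only, 28 members were positive and 27 negative (51.0% of all genes were positive), and the median log2 fold change was 0.015. With a covariate for the share of ribosomal RNA 34 were positive (48.0% of all genes) and the median was 0.086. Leaving out WT E instead raised the median to 0.48, and 5 members, Sema3g, Plxnd1, Nrp2, Epha2 and Slit2, then passed the adjusted threshold (3.63% of all genes, higher in KO).

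**Figure D2:**
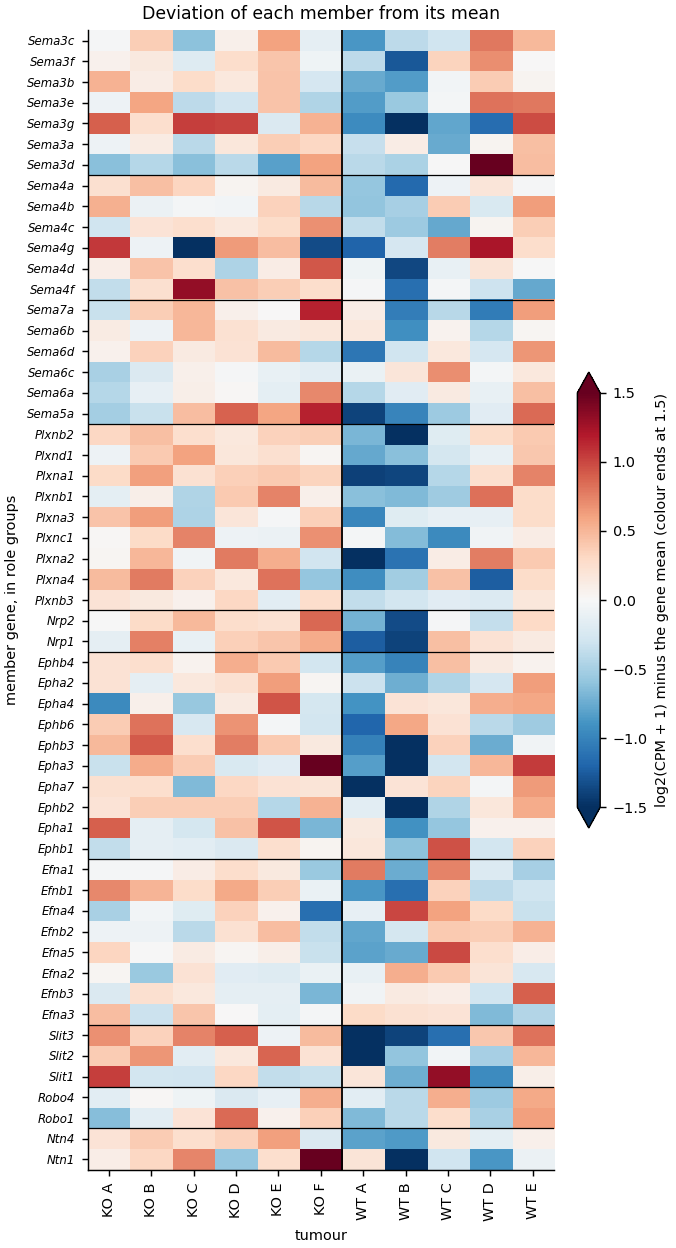
Deviation of log2(CPM + 1) from the gene mean for the 55 members (rows, in role groups) in each tumour (columns, KO left of the line), with red above and blue below the mean. WT A and WT B are blue in most rows, 47 and 46 members lying below their mean, and WT E is mostly red with 11 below.

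The class 3 semaphorins are secreted ligands, and 5 of 7 had positive fold changes with a median of 0.10, whereas 2 of 7 did with WT D and E only (median -0.27) and 3 of 7 with the ribosomal RNA covariate (median -0.23). Sema3c, a repellent and angiogenic ligand, was the most abundant at 18.4 RPKM, and its CPM was 80.9, 127 and 189 in KO tumours (lowest, median, highest) and 67.4, 94.1, 101, 214 and 174 in WT A to E, with WT D highest of all tumours and a log2 fold change of 0.03 ± 0.30, or -0.54 ± 0.27 with WT D and E only. Sema3g, a ligand known from endothelium, had the largest positive value of the class. It measured 4.67, 9.902 and 12.6 CPM in KO and 2.43, 1.17, 2.85, 1.997 and 12 CPM in WT tumours, so that 4 WT tumours lay below every KO tumour and WT E among the upper ones, with a log2 fold change of 1.18 ± 0.53, or 0.43 ± 0.60 with WT D and E only. Sema3d, which signals to endothelial and neural crest cells, had the largest negative value of all members. Its CPM was 0.244, 0.526 and 2.34 in KO and 0.651, 0.584, 1.18, 13.5 and 2.01 in WT tumours, and the log2 fold change was -2.21 ± 0.85, or -3.31 ± 0.79 with WT D and E only. WT D alone stood apart, with the other WT tumours among the KO values. Without WT D no member was lower in KO at an unadjusted p under 0.05.

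Sema3e, the ligand of Plxnd1, turned with the choice of WT tumours. KO tumours measured 31.02, 37.6 and 64.7 CPM and WT A to E 23.5, 28.7, 41.7, 76.1 and 74.7 CPM. WT A and B were the lowest tumours and WT D and E the highest, which gave a log2 fold change of -0.17 ± 0.33 with all WT tumours and of -0.79 ± 0.28 with WT D and E only. Sema3a, Sema3b and Sema3f had log2 fold changes of 0.18, 0.41 and 0.10, or -0.18, 0.01 and -0.27 with WT D and E only.

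Among the membrane-bound class 4 semaphorins, 5 of 6 were positive with a median of 0.46, and 4 of 6 with WT D and E only (median 0.11). Sema4a, expressed by antigen-presenting cells and epithelium, was the most abundant at 24.1 RPKM. Its CPM ran 128, 152 and 174 in KO tumours and 83.3, 55.1, 119, 141 and 123 in WT A to E, only WT D reaching into the KO range, with a log2 fold change of 0.54 ± 0.22, or 0.21 ± 0.14 with WT D and E only. Sema4f, a little-expressed ligand of neurons and glia, measured 2.66, 4.896 and 10.8 CPM in KO and 3.69, 1.17, 3.64, 2.82 and 1.78 CPM in WT tumours. KO C was far above the rest and KO A below WT A, C and D, and the log2 fold change was 1.08 ± 0.39 with all WT tumours and 1.28 ± 0.50 with WT D and E only. Sema4g had the most negative value of the class, with 16.8, 58.8 and 106 CPM in KO and 21.4, 42.1, 86.5, 119 and 60.6 CPM in WT tumours, an overlap over almost the whole range and a log2 fold change of -0.22 ± 0.50, or -0.66 ± 0.63 with WT D and E only. Sema4d, the lymphocyte semaphorin that binds Plxnb1, had 35.7, 56.6 and 95.9 CPM in KO and 47.4, 18.6, 45.7, 57.1 and 49.4 CPM in WT tumours, KO F standing highest and WT B lowest (0.48 ± 0.29, or 0.20 ± 0.30 with WT D and E only).

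Several class 4 semaphorins are known from leukocytes, so markers of these cells were summed in the same tumours. The 6 B cell markers summed to 55.2 to 133 CPM in KO and 14.9 to 50.3 CPM in WT tumours (log2 difference 1.95, exact permutation p = 0.00216, the smallest that 462 arrangements allow, or 0.0303 after Benjamini-Hochberg adjustment over 14 marker lists). All 6 of these markers were higher in KO at an unadjusted p under 0.05 and none was at 0 in all tumours. The 7 neutrophil markers summed to 273 to 2256 CPM in KO and 158 to 1009 CPM in WT tumours (log2 difference 1.83, exact permutation p = 0.0281, adjusted 0.197), and 5 of the 7 were higher in KO at an unadjusted p under 0.05. Sums for 6 T cell markers (60.3 to 350.2 CPM in KO, 144 to 418 CPM in WT, adjusted p = 0.904 by exact permutation) and 9 macrophage markers (3544 to 6244 and 3088 to 6112 CPM, adjusted p = 0.873 by exact permutation) overlapped, although 3 of the 9 macrophage markers, Csf1r, Itgam and Adgre1, were higher in KO at an unadjusted p under 0.05 (log2 fold changes of 0.83, 0.91 and 0.68). The part of leukocytes in the values of the semaphorins was not tested.

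Of the transmembrane class 5 and 6 and the GPI-anchored class 7 semaphorins, 5 of 6 were positive, with a median of 0.30, and 3 of 6 with WT D and E only (median -0.02). Sema7a, which acts on integrins and Plxnc1, was the most abundant at 20.3 RPKM, with 47.8, 71.2 and 136 CPM in KO and 65.3, 28.95, 44.95, 28.8 and 93.9 CPM in WT tumours. WT B and WT D were lowest, WT E exceeded 5 KO tumours, and the log2 fold change was 0.59 ± 0.34, or 0.37 ± 0.47 with WT D and E only. Sema5a, a guidance cue with attractive and repulsive action, had the largest positive value at 0.87 ± 0.53, from 2.59, 6.38 and 10.4 CPM in KO and 0.955, 1.59, 2.51, 3.56 and 8.27 CPM in WT tumours, against 0.07 ± 0.54 with WT D and E only. Sema6c, the most negative, measured 2.24, 3.14 and 3.79 CPM in KO and 3.25, 4.17, 6.39, 3.44 and 4.06 CPM in WT tumours, with WT C highest and a log2 fold change of -0.45 ± 0.25, or -0.26 ± 0.25 with WT D and E only.

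All 9 plexins, the semaphorin receptors, had positive fold changes (median 0.52), and 5 of the 9 did with WT D and E only. Plxnb2, a receptor for class 4 semaphorins, made up a mean of 50.7% of the summed plexin RPKM in KO and 48.4% in WT tumours. Its CPM was 404, 455 and 494 in KO and 225, 112, 319.6, 437 and 475 in WT A to E. The KO tumours lay close together while WT A, B and C were below all of them and WT D and E within their range, for a log2 fold change of 0.52 ± 0.30 that became -0.01 ± 0.12 with WT D and E only. Plxna4, a receptor for class 3 semaphorins, had the largest value, 9.59, 20.1 and 26.8 CPM in KO and 7.33, 10.01, 20.5, 5.72 and 18.2 CPM in WT tumours. WT A and D were the lowest and KO F lay beside WT B, with log2 fold changes of 0.69 ± 0.36 and, with WT D and E only, 0.75 ± 0.48. Plxna1 and Plxnd1, the latter the endothelial receptor of Sema3e, also had WT A and B as the lowest tumours, with log2 fold changes of 0.57 and 0.46, or -0.14 and 0.08 with WT D and E only.

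The neuropilins, co-receptors for class 3 semaphorins and VEGF, were near each other in level, Nrp2 at 5.53 and Nrp1 at 5.295 RPKM. Nrp2 measured 60.8, 73.96 and 112 CPM in KO and 36.8, 23.4, 60.3, 47.4 and 75.3 CPM in WT A to E, 4 WT tumours lying below every KO tumour and WT E above 4 of 6, with a log2 fold change of 0.71 ± 0.27, or 0.38 ± 0.24 with WT D and E only. Nrp1 had 42.8, 62.1 and 80.5 CPM in KO and 19.4, 17.4, 64.8, 55.2 and 51.8 CPM in WT tumours. WT A and B lay far below and WT C, D and E inside the KO range, giving 0.53 ± 0.34 with all WT tumours and 0.17 ± 0.24 with WT D and E only. Endothelial markers, 12 genes none of which was at 0, summed to 311 to 462 CPM in KO and 205 to 469 CPM in WT tumours (log2 difference 0.16, exact permutation p = 0.502). Single markers went both ways at an unadjusted p under 0.05 in edgeR. Of the 12, 1 was higher in KO (Erg, log2 fold change 1.06) and 2 were lower (Cldn5 and Egfl7, both -1.03), against 8.57% and 15.5% of all genes.

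**Figure D3:**
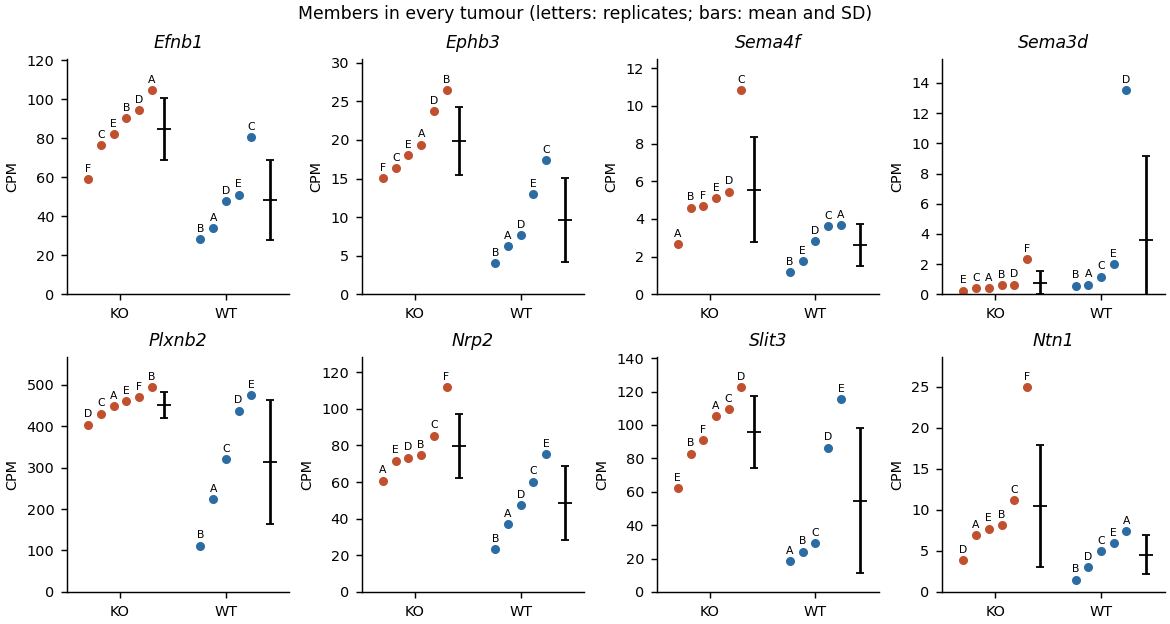
CPM of 8 members in each KO (orange, n = 6) and WT (blue, n = 5) tumour, with letters for the replicates and bars for mean and SD. For Sema3d the lower end of the WT bar passes below 0 and is not drawn. For Plxnb2 and Slit3 WT D and E sit within the KO range, for Efnb1 and Ephb3 only WT C does, and for Sema3d 1 tumour, WT D at 13.5 CPM, is far above all others.

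Slit ligands, secreted repellents, were represented by Slit3, which made up a mean of 86.0% of the summed Slit RPKM in KO and 79.3% in WT tumours, and by Slit2 and Slit1. Slit3 had 62, 98.3 and 123 CPM in KO and 18.4, 24.2, 29.2, 86.4 and 115 CPM in WT A to E. WT A, B and C lay below every KO tumour and WT D and E within the KO range, with a log2 fold change of 0.80 ± 0.43 that was -0.07 ± 0.23 with WT D and E only. Slit2 measured 33.3, 46.2 and 69.1 CPM in KO and 12.6, 24.5, 36.2, 26.2 and 53.3 CPM in WT tumours, 3 of which were below all KO tumours, for 0.69 ± 0.31 and, with WT D and E only, 0.32 ± 0.32. Slit1, the neuronal member, had 1.79, 1.96 and 6.404 CPM in KO and 3.08, 1.17, 7.96, 0.861 and 2.81 CPM in WT tumours, where KO A and WT C were high, and a log2 fold change of -0.13 ± 0.55, or 0.66 ± 0.64 with WT D and E only. Sums of 12 fibroblast markers, none at 0, ran from 4767 to 9900 CPM in KO and from 2776 to 9858 CPM in WT tumours, WT E being the highest WT tumour (log2 difference 0.57, exact permutation p = 0.156), and their part in the Slit values was not tested.

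Their receptors were led by Robo4, the endothelial Robo, which made up a mean of 88.5% of the Robo RPKM in KO and 90.9% in WT tumours. Robo4 had 9.92, 10.8 and 17.5 CPM in KO and 10.4, 8.59, 17.5, 7.67 and 17.8 CPM in WT A to E, KO F, WT C and WT E being alike and above the others, with a log2 fold change of -0.06 ± 0.26, or -0.10 ± 0.32 with WT D and E only. Robo1, the receptor of Slit2 on neurons and epithelium, measured 2.27, 4.57 and 8.13 CPM in KO and 2.21, 2.84, 5.11, 2.62 and 6.75 CPM in WT tumours and overlapped, at 0.28 ± 0.38, or 0.02 ± 0.48 with WT D and E only. Robo2 reached at most 7 counts in any tumour and Robo3 at most 2.

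Netrins were positive for both members kept. Ntn4, a basement membrane netrin, made up a mean of 86.2% of the netrin RPKM in KO and 90.7% in WT tumours, and measured 28.1, 40.5 and 50.6 CPM in KO and 18.4, 17.8, 36.4, 29.5 and 34.6 CPM in WT A to E. WT A and B were lowest, KO F lay below WT C, D and E, and the log2 fold change was 0.55 ± 0.22, or 0.33 ± 0.20 with WT D and E only. Ntn1, the secreted ligand of Dcc and Unc5 receptors, had 3.902, 7.91 and 24.9 CPM in KO and 7.38, 1.502, 4.96, 3.01 and 5.92 CPM in WT tumours. KO F stood at more than any other tumour, WT A lay beside the KO median, and the log2 fold changes were 1.19 ± 0.48 and, with WT D and E only, 1.23 ± 0.66. Dcc had 0 counts throughout, whereas the netrin receptor Unc5b, not a member, was at 121, 164 and 193 CPM in KO and 74.3, 50.3, 128, 128 and 161 CPM in WT tumours.

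With all WT tumours, 8 of 10 Eph receptors were positive (median 0.39) and 2 of 8 ephrins (median -0.14). This contrast in sign was not seen with WT D and E only, where 4 of 10 receptors (median -0.08) and 3 of 8 ephrins (median -0.14) were positive, and with the replicate letters as a block 4 of 8 ephrins were. Ephb4, the venous endothelial receptor of Efnb2, was the most abundant receptor at 23.7 RPKM, with 86.2, 123 and 154 CPM in KO and 58.8, 51.9, 144, 115 and 108 CPM in WT A to E. WT A and B lay below all KO tumours and the other WT tumours within their range, at 0.36 ± 0.26, or 0.14 ± 0.19 with WT D and E only. Epha2, the epithelial receptor of Efna1, was next at 21.5 RPKM, and 4 of 5 WT tumours, all but WT E at 149.6 CPM, lay below every KO tumour, with a log2 fold change of 0.36 ± 0.23, or -0.04 ± 0.24 with WT D and E only. Ephb1, a receptor of B-class ephrins, was the most negative, from 1.36, 1.76 and 2.64 CPM in KO and 2.43, 1.001, 4.91, 1.53 and 2.87 CPM in WT tumours, with WT C highest and a log2 fold change of -0.44 ± 0.38, or -0.22 ± 0.34 with WT D and E only.

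Ephb3, a receptor best known from the sorting of intestinal epithelial cells, had the largest positive value of the Eph family. KO tumours measured 15.1, 18.7 and 26.5 CPM and WT A to E 6.21, 4.005, 17.4, 7.67 and 13 CPM. WT A, B, D and E lay below every KO tumour and only WT C reached into their range, above KO F and KO C, so that the log2 fold change of 1.03 ± 0.33 was 0.95 ± 0.28 with WT D and E only. Its ligand Efnb1 showed the same order of groups. It had 58.9, 86.3 and 105 CPM in KO and 34.1, 28.2, 80.5, 47.8 and 51.1 CPM in WT tumours, with WT C above KO F and KO C and the other 4 WT tumours below all KO tumours, and log2 fold changes of 0.81 ± 0.25 and, with WT D and E only, 0.78 ± 0.20. The fit with WT D and E only leaves out WT C, the WT tumour that overlapped for both genes. With WT C, D and E only the log2 fold changes were lower, 0.63 ± 0.28 for Ephb3 and 0.49 ± 0.22 for Efnb1. Efnb1 accounted for a mean of 28.9 ± 3.18% (SD, n = 6) of the summed ephrin RPKM in KO tumours and 15.9 ± 3.90% (SD, n = 5) in WT tumours.

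**Figure D4:**
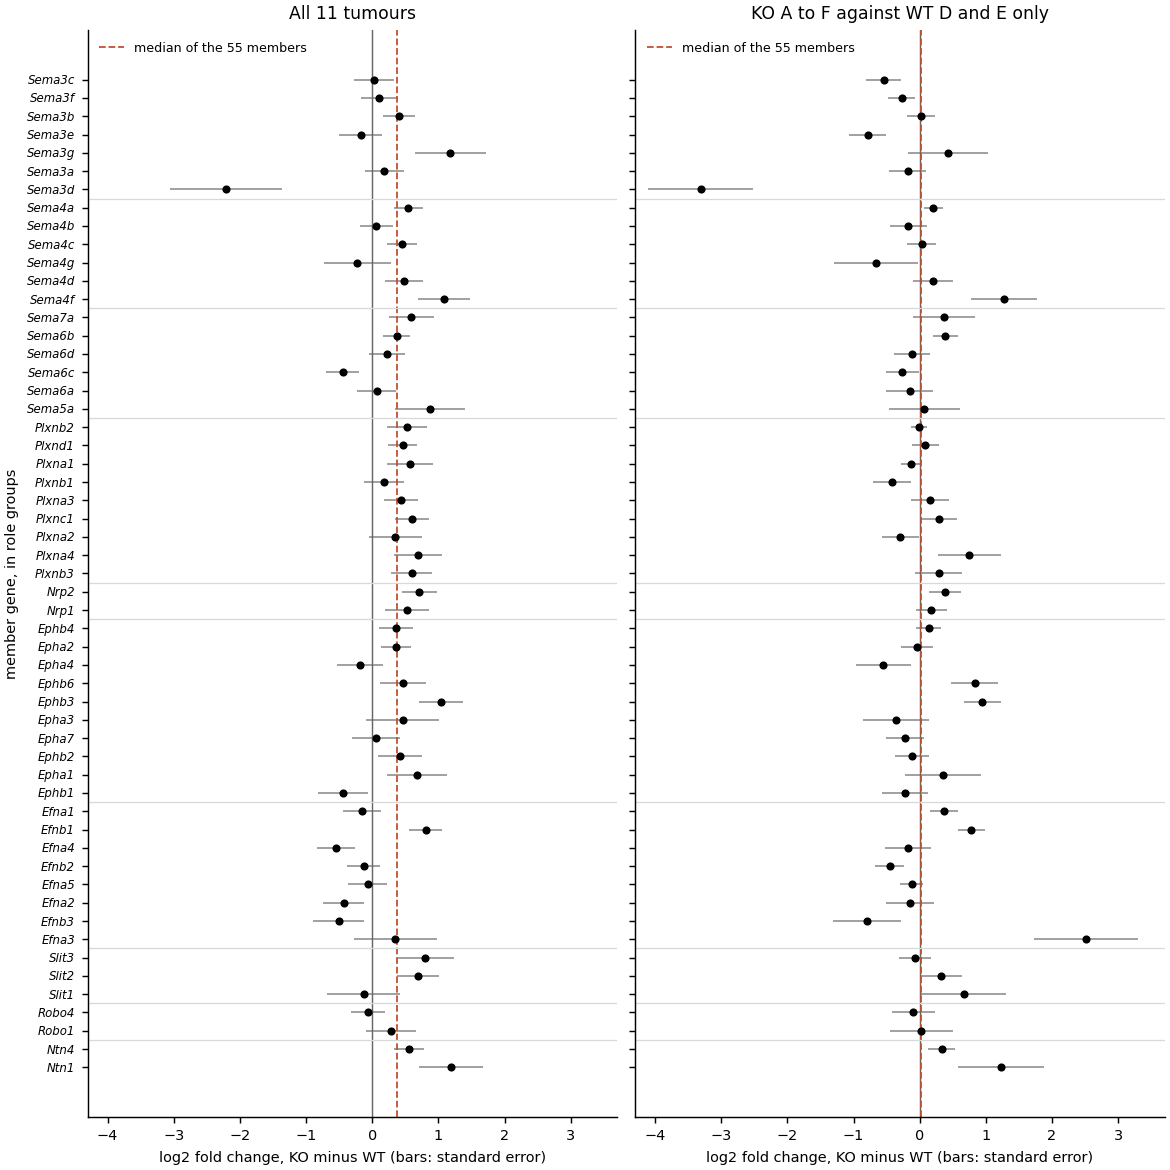
Log2 fold change from edgeR, KO minus WT, of each member with its standard error, with all 11 tumours (left) and with WT D and E as the only WT tumours (right). The dashed line marks the members' median, 0.37 on the left and 0.015 on the right. Plxnb2, Plxna1, Plxnd1, Nrp1 and Slit3 lie nearer to 0 on the right, whereas Efnb1, Ephb3, Sema4f and Ntn1 stay near their values on the left. WT C, the only WT tumour within the KO range for Efnb1 and Ephb3, is left out on the right.

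Against WT D and E only, Efnb1, Ephb3, Ephb6 and Efna3 were the 4 members whose KO tumours all lay above the WT tumours, and Sema3e the 1 whose KO tumours all lay below. Over all genes the groups were separated in the same way for 8.9% upwards and 10.5% downwards, and these members were named after their values were seen. Efna3, a minor A-class ephrin, had 1 count in WT D, so that its log2 fold change of 2.51 ± 0.79 there rests on few reads, beside 0.35 ± 0.63 with all WT tumours. Ephb6 had log2 fold changes of 0.47 ± 0.35 with all WT tumours and 0.83 ± 0.36 with WT D and E only. With a covariate for the share of ribosomal RNA, the log2 fold changes of Efnb1, Ephb3 and Ephb6 were 0.68, 0.75 and 0.86, those of Plxnb2 and Slit3 0.07 and 0.50. Sema4f was at 1.07 and Ntn1 at 0.63 ± 0.58 in that fit, beside 1.08 and 1.19 without the covariate.

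The other 6 ephrins were negative with all WT tumours. Efna1, a ligand of Epha2, was the most abundant ephrin at 22.8 RPKM, with 26.5, 40.8 and 47.7 CPM in KO and 68.5, 23.1, 67.01, 34.2 and 27.6 CPM in WT A to E. WT A and C lay above every KO tumour and WT B below all, for a log2 fold change of -0.15 ± 0.29, or 0.37 ± 0.21 with WT D and E only. Efna4, a short A-class ephrin of 1599 exon bases, had the most negative value, from 11.9, 25.3 and 35.2 CPM in KO and 25.1, 55.7, 42, 33.6 and 21.4 CPM in WT tumours. WT B and C were above all KO tumours and KO F below all WT tumours, with log2 fold changes of -0.55 ± 0.29 and, with WT D and E only, -0.18 ± 0.35. Because the length correlation was negative in WT A, B and C, an offset for exon length was also fitted, which put Efna4 at -0.22, Efna1 at 0.11 and the median of all members at 0.32.

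Carcinoma cells were followed by 10 epithelial markers, none of them at 0, which summed to 2776 to 5675 CPM in KO and 3118 to 9653 CPM in WT tumours (log2 difference -0.54, exact permutation p = 0.104). Of these markers 3 were lower and 0 higher in KO at an unadjusted p under 0.05 in edgeR (15.5% and 8.57% of all genes). Markers of nerve were followed as well. Of 9 glial markers Sox10 was at or below 0.0348 CPM in every tumour. Among the 12 neuronal markers, Tubb3 and Uchl1 brought the sum to 77.4 to 254 CPM in KO and 20.8 to 140 CPM in WT tumours (log2 difference 1.01, exact permutation p = 0.128). Of the 6 neuronal markers tested 1, Stmn2, was higher in KO at an unadjusted p under 0.05 in edgeR (log2 fold change 1.37 ± 0.52).

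Other genes of the pathway were taken from lists of receptors, partners and downstream signalling genes, of which 77 of 84 found in the table were tested. Among them 54 were positive (70.1%, against 48.0% of all genes), and the median log2 fold change was 0.27. At an unadjusted p under 0.05, 12 were higher and 3 lower in KO (8.57% and 15.5% of all genes). With WT D and E only 47 of 80 tested were positive (58.75%, against 51.0% of all genes) and the median was 0.10. The median was 0.06 with WT C, D and E only and 0.09 with the ribosomal RNA covariate. Vav3, an exchange factor downstream of Eph receptors, was the 1 gene of the 77 tested without overlap, against 3.58% of all genes. It measured 7.36, 7.85 and 12.6 CPM in KO and 5.56, 4.92, 3.49, 6.34 and 6.96 CPM in WT A to E (0.72 ± 0.24). Chl1, an adhesion molecule that binds neuropilin, measured 10.3, 15.2 and 42.5 CPM in KO and 4.17, 8.84, 5.21, 5.17 and 22.2 CPM in WT tumours, with WT E among the KO values (1.13 ± 0.48). Cdk5, a kinase in semaphorin signalling, had the most negative value, 34.98, 43.3 and 50.5 CPM in KO and 65.9, 133, 73.99, 50.7 and 44.2 CPM in WT tumours, with WT B highest (-0.80 ± 0.25). Flrt1 had the largest positive value (1.36 ± 0.99) but was under 1 CPM in 6 of 11 tumours, and Rnd2 was at -0.67 ± 0.39.

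**Figure D5:**
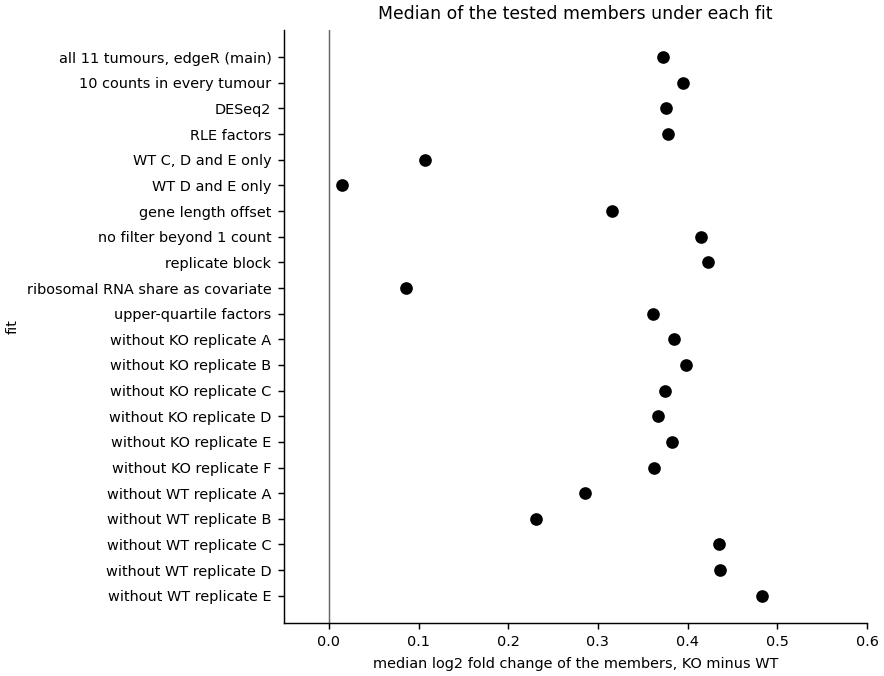
Median log2 fold change of the tested members, KO minus WT, under each fit (rows): all tumours, other normalisations, filters, covariates and sample choices, and each tumour left out. Leaving out 1 tumour gave 0.23 to 0.48, while WT C, D and E only, WT D and E only and the ribosomal RNA covariate gave 0.11, 0.015 and 0.086.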

How the data were processed

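According to the methods of the study and the labels, strand-specific libraries (NEB Next Ultra II Directional) were sequenced paired-end. The submitters' processing notes name Trimmomatic, HISAT2 2.1.0 and HTSeq 0.11.2 with mouse build mm10, and only uniquely aligned reads over exons were counted. Alignment was strand-specific, and the strand setting of the counting is not given in the sources used here, so that reads of a member and of a gene opposite to it may not have been separated. The authors deposited raw counts per gene, in whole numbers, which were used here. Their second table, the same counts divided by 1 factor per sample, was not used. Groups and replicate letters were read from the sample titles. The replicates came from separate animals.

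Symbols and exon lengths were taken from GENCODE M21 (GRCm38), and 54165 of 54232 genes matched. Genes were filtered with filterByExpr and 16536 were tested with edgeR 4.0.16 (TMM factors, quasi-likelihood F-test, genotype as the only term, Benjamini-Hochberg adjustment over all genes), and DESeq2 1.42.0 was the alternative. CPM used the TMM-scaled library sizes. Summed marker levels were compared by two-sided exact permutation over 462 arrangements of the 6 KO and 5 WT tumours, which go no lower than p = 0.00216. Total counts per tumour were 16294128 to 31121422, and a count of 0 was given the limit that 3 counts allow, which covers counting error only. Errors printed with ± are edgeR standard errors or SDs over tumours.

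Members and gene lists were chosen with earlier results of these data known. Named within each role group were the member with the highest RPKM and those with the largest positive and negative fold changes; others were named after their values were seen. Alternatives covered size factors, filters, leaving out each tumour, WT D and E only, ribosomal RNA share, exon length and a replicate block. The fit with WT C, D and E only was added after seeing the data. The letters A to E belong to different animals in each genotype, and no label states that a shared letter pairs animals. No 2 libraries were alike within sampling noise. Both edgeR and DESeq2 were tested on simulated data.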

Additional observations from a re-analysis of the deposited data

Results flagged for a closer look

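In 142 groups of tumours, the members, marker sums and library measures were searched for a highest or lowest tumour that stands far from the rest of its genotype (Dixon's ratio, 95% critical value 0.625 for 6 and 0.71 for 5 tumours). For independent groups of normally distributed values, chance gives about 1 in 20 groups, or 7.1. The groups share the same tumours and CPM was not transformed, so 7.1 is not a valid expectation here. In all, 21 values were found, of which 7 fell on WT E and 6 on KO F.

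Among the members, Sema3d was high in KO F (2.34 CPM, the other KO tumours 0.244 to 0.65) and in WT D (13.5 CPM, the others 0.584 to 2.01). Sema3g in WT E was 12 CPM where the other WT tumours had 1.17 to 2.85. Epha2 and Efnb3 were also high in WT E, at 149.6 and 3.79 CPM. KO F was high in Sema6a (7.61 CPM), Epha3 (33.8 CPM), Robo4 (17.5 CPM) and Ntn1 (24.9 CPM, the other KO tumours 3.90 to 11.2). Sema4f was high in KO C at 10.8 CPM, Slit1 in KO A at 6.40 CPM, and Epha7 was low in KO C at 8.38 CPM.

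Among the marker sums, WT E stood high for fibroblast (9858 CPM), B cell (50.3 CPM), acinar (1964 CPM) and islet markers (328 CPM). The acinar sum was also high in KO E at 676 CPM and the islet sum in KO F at 83.2 CPM. Neutrophil markers were high in WT B (1009 CPM) and T cell markers in WT A (418 CPM). The ribosomal RNA share was 6.39% in WT B, where the other WT tumours had 0.241 to 1.40%.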

How the results depend on the processing

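The median log2 fold change of the members was 0.37 and stayed between 0.23 and 0.48 when 1 tumour was left out, but it was 0.015 with WT D and E only, 0.086 with a covariate for the share of ribosomal RNA and 0.11 with WT C, D and E only. Members higher in KO at an unadjusted p under 0.05 numbered 10, and 5, 2 and 4 under these 3 fits (8.21, 4.37 and 6.52% of all genes), against 6 to 21 when 1 tumour was left out (6 without KO B or WT B, 6.86 and 6.72% of all genes, and 21 without WT E, 13.0%). Members lower in KO numbered 1, and 2 with WT D and E only, 2 with WT C, D and E only, 2 with the gene length offset and 0 with at least 10 counts in every tumour (9.01, 7.42, 13.8 and 16.6% of all genes), and 0 to 2 when 1 tumour was left out. At the adjusted threshold 0 members were higher in KO, 2 by DESeq2 and 0 to 5 when 1 tumour was left out (5 without WT E). Members without overlap between the groups numbered 0 with all tumours, 4 higher and 1 lower with WT D and E only (8.9 and 10.5% of all genes), and 0 to 5 higher when 1 tumour was left out (5 without WT E, 4.43% of all genes, and at most 2 without any other tumour). Of 1152 single log2 fold changes across alternatives, 20 moved by over 1 SD, 13 of them with WT D and E only. The ribosomal RNA and gene length differences passed an exact permutation p of 0.05 without WT E (0.00476 and 0.019), the gene length difference also without WT D (0.0381). The cause of these shifts was not tested.

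With the replicate letters as a block the members' median was 0.42, with 14 higher and 1 lower at an unadjusted p under 0.05 (7.92 and 7.90% of all genes). Same-lettered tumours deviated together with correlations of -0.17 to 0.16, against -0.42 to 0.23 for KO and WT tumours of different letters. Whether a shared letter stands for a shared batch or litter was not tested. WT B was the shallowest library, and genes near or under 1 CPM in most tumours, such as Sema3d and Efna3, rest on few counts.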
